A study of Homo sapiens with 6 samples.

Results

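The genes described here encode 9 enzymes of liver methionine, betaine and homocysteine metabolism: BHMT2, BHMT, DMGDH, MAT1A, MAT2A, GNMT, AHCY, CBS and CTH. They were selected by gene symbol, with the results of these same 6 libraries already known, and they were 9 of 30987 genes in the count table. All 9 passed the filter on low counts, as did 15528 genes overall. CBS was the only repeated symbol among them, and the identifier with the highest total count was kept. Because the choice rested on known results, the values describe these libraries and are not independent evidence.

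RNA was taken from HepG2, a human liver cancer cell line, 48 h after transfection. The 3 siPAIP1 libraries came from cells given siRNA3, a small interfering RNA against PAIP1, a translation factor that also takes part in mRNA decay. The 3 Ctrl libraries came from HepG2 cells given a non-targeting siRNA for the same time. All libraries were therefore from a single transfected line, with 1 siRNA sequence per group, so that PAIP1 loss and other actions of that siRNA cannot be told apart.

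Methionine is activated to S-adenosylmethionine, the methyl donor of most cellular methylation, by MAT1A in mature hepatocytes and by MAT2A in most other cells and in growing or malignant liver. GNMT, an abundant hepatocyte enzyme, spends S-adenosylmethionine to turn glycine into sarcosine, and AHCY splits the S-adenosylhomocysteine that methylation leaves into adenosine and homocysteine. Homocysteine is then either methylated again, by BHMT with betaine or by BHMT2 with S-methylmethionine, or passed by CBS and CTH toward cysteine. DMGDH, in mitochondria, demethylates the dimethylglycine that BHMT releases.

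Of the 9 genes, 3 fell in siPAIP1 (BHMT2, GNMT and MAT1A), 1 rose (BHMT), and 5 did not pass the test (DMGDH, MAT2A, AHCY, CBS and CTH). BHMT2 had the largest change, to 38.7% of its Ctrl level, while its neighbour and paralog BHMT was at 146% of Ctrl. A call required an adjusted p below 0.05 in edgeR's quasi-likelihood test with Benjamini-Hochberg adjustment over all tested genes. By that rule 6.2% of all tested genes were called lower and 5.68% higher. The median log2 fold change of the 9 genes was 0.04, beside 0.03 over all tested genes.

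BHMT2, BHMT and DMGDH lie side by side on chromosome 5, and the sequence between BHMT2 and DMGDH is shown because these neighbours share it and yet had different values. In RefSeq on GRCh38.p14, BHMT2 runs on the plus strand from base 79069767 and DMGDH runs on the minus strand from base 79069674, which leaves 92 bases between their starts. GC boxes, the letters GGGCGG searched on both strands, are in capitals.
BHMT2-DMGDH interval, chr5:79069675-79069766, plus strand: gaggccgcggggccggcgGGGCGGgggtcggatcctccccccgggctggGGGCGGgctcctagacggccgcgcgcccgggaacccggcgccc
This interval was 87% GC and held 2 GC boxes. It held no TATA box (TATAAA).

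The 250 bases before the starts of the 3 other genes that passed the test are printed for comparison, each 5′ to 3′ on the strand of its gene. Capitals mark a GC box on the reverse strand and a TATA box (TATAAA) upstream of BHMT, and CCAAT boxes (CCAAT, or ATTGG where it is on the reverse strand) upstream of MAT1A and GNMT.
BHMT, chr5:79111559-79111808, plus strand: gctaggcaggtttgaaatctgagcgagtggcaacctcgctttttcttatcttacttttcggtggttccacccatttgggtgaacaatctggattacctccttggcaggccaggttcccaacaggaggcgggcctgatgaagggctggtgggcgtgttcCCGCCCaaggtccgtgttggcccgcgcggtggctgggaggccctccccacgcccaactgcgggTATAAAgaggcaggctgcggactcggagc
MAT1A, chr10:80289659-80289908, minus strand: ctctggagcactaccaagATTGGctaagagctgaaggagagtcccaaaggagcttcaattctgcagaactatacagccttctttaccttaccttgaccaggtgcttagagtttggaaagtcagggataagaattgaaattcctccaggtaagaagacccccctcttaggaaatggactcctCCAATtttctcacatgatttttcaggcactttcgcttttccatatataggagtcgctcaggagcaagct
GNMT, chr6:42960504-42960753, plus strand: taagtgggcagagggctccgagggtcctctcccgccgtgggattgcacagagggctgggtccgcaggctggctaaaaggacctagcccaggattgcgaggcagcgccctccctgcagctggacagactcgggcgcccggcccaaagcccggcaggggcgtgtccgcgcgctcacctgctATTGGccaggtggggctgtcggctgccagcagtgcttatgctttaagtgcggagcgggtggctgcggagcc
The BHMT TATA box began 29 bases before the gene start, whereas no TATAAA was found in the corresponding window of BHMT2, MAT1A or GNMT. MAT2A, which was not called, also held TATAAA, 32 bases before its start. Only this exact word was searched, and related forms such as the tatata near the end of the MAT1A window were not counted. GC content was 60.4% for BHMT, 44.8% for MAT1A and 68.4% for GNMT, beside a median of 58% over 35116 annotated promoters. Over windows of the same length before all of these starts, 42.6% held a GC box, 10.7% a TATA box and 32% a CCAAT box. No window before any start of the 9 genes held an E-box (CACGTG, in 6.34% of all windows) or the amino acid response letters TGATGNAA (in 3.14%). These are matches of letters only and do not show that a factor was bound.

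The siRNA itself is printed because its seed, bases 2 to 8 of the antisense strand, matched the BHMT2 transcript. Capitals mark the seed in the antisense strands and the matching word in the gene.
siRNA3, antisense strand: uAUCAUCCaaguauggauctt
non-targeting siRNA, antisense strand: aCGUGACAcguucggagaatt
BHMT2, chr5:79088966-79088986, plus strand: gctagatacttgaGGATGATa
The BHMT2 word lay in the last of 8 exons, in the 3′ untranslated region, 404 bases after the stop codon, and was followed by an A. Laid base against base without gaps, 10 of the 19 bases before the overhang of siRNA3 could pair with this stretch. Pairing with gaps was not counted and could be more extensive. If bases of the transcript are left unpaired, the letters atacttg shortly before the word could also pair with siRNA3. None of the other 8 enzyme genes held the word in the 3′ untranslated region of its canonical transcript, whereas 7.7% of 20046 canonical transcripts in GENCODE did. AHCY, CBS, CTH and DMGDH each held it once elsewhere in the transcript, and 21.4% of canonical transcripts held it in any part. The 3′ untranslated region of CBS held the word of the non-targeting siRNA, as did that of 2.59% of canonical transcripts. Among tested genes with the siRNA3 word in that region, 11.2% of 1006 were called lower and 4.47% higher in siPAIP1. Among those with the word of the non-targeting siRNA the shares were 8.96% of 346 and 4.05%, and among all 11769 tested genes with a canonical coding transcript they were 7.19% and 6.15%. The search was made after the BHMT2 values were seen, the length of the untranslated regions was not matched, and whether siRNA3 acted on BHMT2 was not tested.

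The count tables held 29313211 to 34659866 reads assigned to genes per library. PAIP1, the targeted gene, had FPKM values (fragments per kilobase of exon, scaled to mapped depth) of 26.83, 22.96 and 26.01 in Ctrl and 8.29, 6.54 and 5.47 in siPAIP1, so its mean was 26.8% of Ctrl (exact permutation test, two-sided, p = 0.1, the smallest that 3 against 3 allows). siPAIP1 3 stood apart from the rest: 357 of 9247 genes with a CPM (read count over the TMM-scaled library total) of 10 or more on average were over 2-fold above the mean of its fellow replicates, beside 0 to 7 genes in each other library. All 10 liver markers examined reached an FPKM of 1, with ALB at 684.87 to 743.96 FPKM in Ctrl. The summed FPKM of the leukocyte, endothelial and fibroblast lists reached at most 3.24, 0.3 and 0.18 in any library, and PTPRC, CD3E, KDR and COL3A1 were not listed. The liver marker list moved with the groups, with 5 of 10 called lower and 0 higher. Its summed FPKM was 3139.89 to 3326.14 in Ctrl against 1750.34 to 2705.39 in siPAIP1. Its summed CPM was 10375.1 to 10980.9 against 6704.71 to 8628.81. The part of this list in the values below was not tested. Relative to Ctrl 1, the depth divisor of FPKM was 0.941 in siPAIP1 3 and its count total 0.846. FPKM values of siPAIP1 3 are therefore low relative to its counts.

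In the Ctrl libraries the 9 genes spanned a wide range of FPKM. AHCY was highest, at 190 ± 5.44 FPKM (SD, n = 3), followed by MAT2A at 48.4 ± 3.22, MAT1A at 38.6 ± 0.202 and BHMT2 at 28.4 ± 0.924. GNMT, BHMT, CTH, CBS and DMGDH were all near the low end, with means from 0.673 for DMGDH to 1.94 for GNMT. BHMT and CTH overlapped in their library ranges, as did CBS and DMGDH, so the order within these pairs did not exceed the spread. In siPAIP1 the order of AHCY, MAT2A, MAT1A and BHMT2 was the same, at 187 ± 26.2, 51.6 ± 4.49, 31.4 ± 1.90 and 11.2 ± 1.27 FPKM. BHMT came next at 2.42 ± 0.101 FPKM, and the ranges of CBS, CTH, GNMT and DMGDH, taken in that order of means, each overlapped the next.

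**Figure D1:**
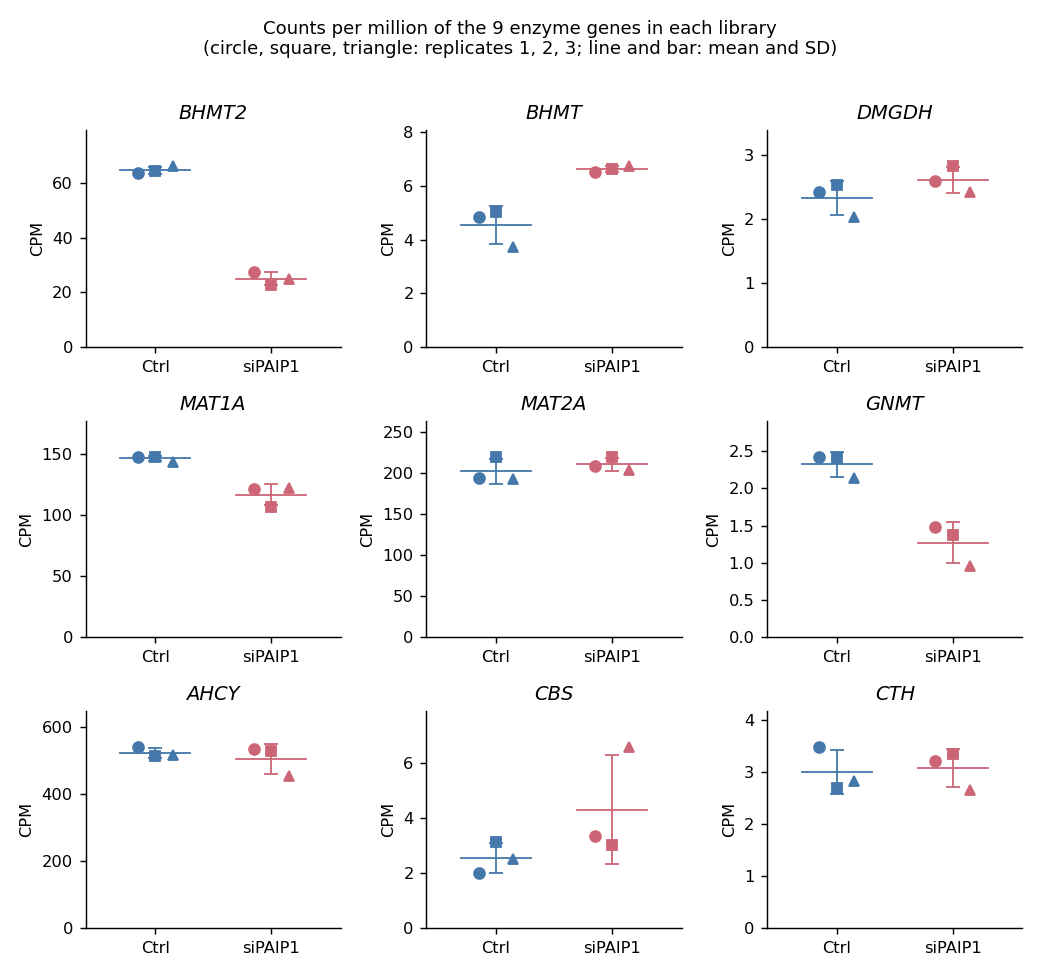
CPM (TMM-scaled counts, linear axes from 0) of the 9 enzyme genes in Ctrl (blue) and siPAIP1 (red), with circles, squares and triangles for replicates 1, 2 and 3 and a line and bar for the mean and SD. BHMT2, MAT1A and GNMT have every siPAIP1 point below every Ctrl point, BHMT has the opposite, and siPAIP1 3 is the highest CBS point at 6.57 CPM and the lowest AHCY point at 453 CPM.

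BHMT2, which methylates homocysteine with S-methylmethionine, was measured at 63.8, 64.3 and 66.2 CPM in Ctrl and at 27.6, 22.8 and 24.7 CPM in siPAIP1. The Ctrl libraries lay within a few CPM of each other and far above all siPAIP1 libraries. In FPKM the Ctrl values were 27.81, 27.85 and 29.43 and the siPAIP1 values 12.64, 10.54 and 10.35, and the groups were again apart. The log2 fold change was -1.37 with an SE of 0.09 (adjusted p = 0.00085, edgeR's quasi-likelihood test). BHMT2 was the only one of the 9 enzymes that also met the 2-fold rule for a differentially expressed gene. By this rule 1.1% of all tested genes were lower and 1.11% higher. At 746 to 2132 reads per library, the exact Poisson 95% interval of its count had a half-width of 4.27% to 7.24%, which covers counting error only. Its call held in all 15 alternative settings, with log2 fold changes from -1.45 to -1.27. In these bulk libraries, fewer cells that express BHMT2 and less BHMT2 RNA per cell cannot be told apart.

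BHMT, the betaine-dependent paralog, was measured at 4.85, 5.04 and 3.74 CPM in Ctrl and at 6.50, 6.63 and 6.73 CPM in siPAIP1. Every siPAIP1 library was above every Ctrl library, with Ctrl 3 the lowest. The same held in FPKM, at 1.73, 1.79 and 1.36 in Ctrl and 2.44, 2.51 and 2.31 in siPAIP1. This gave a log2 fold change of 0.54 with an SE of 0.14 (adjusted p = 0.0453, edgeR's quasi-likelihood test). A count of 114 to 232 reads per library stood behind these values. The call was lost with DESeq2 (adjusted p = 0.0686), with upper-quartile scaling (adjusted p = 0.0508) and on leaving out Ctrl 1, Ctrl 2, Ctrl 3, siPAIP1 1 or siPAIP1 2 (edgeR adjusted p = 0.119, 0.0782, 0.121, 0.0882 and 0.116). Without siPAIP1 3 it was kept, at 0.52 and an adjusted p of 0.0114.

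Groups that do not overlap were common in these data. All siPAIP1 libraries were below all Ctrl libraries for 17.6% of tested genes and above them for 19%, and among the 9 enzymes this held for 3 and 1. The ratio of BHMT2 to BHMT in FPKM was 16.1, 15.6 and 21.6 in Ctrl and 5.18, 4.2 and 4.48 in siPAIP1. The paralog ratio was thus lower in each siPAIP1 library than in each Ctrl library, with a difference of -1.93 between the mean log2 ratios, or -1.66 with 1 added to each FPKM. This ratio was formed from genes chosen with their values known and was not tested.

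DMGDH, which in RefSeq starts 92 bases from BHMT2 and faces away from it, was measured at 2.43, 2.53 and 2.03 CPM in Ctrl and at 2.59, 2.83 and 2.42 CPM in siPAIP1. The groups overlapped, since Ctrl 1 and Ctrl 2 were above siPAIP1 3. DMGDH had a log2 fold change of 0.17 with an SE of 0.16 (edgeR adjusted p = 0.520), on 62 to 99 reads per library. GENCODE extends DMGDH to base 79236038, across BHMT2 and BHMT on the opposite strand. Because DMGDH runs on the minus strand, that base is a start farther from BHMT2. Reads of DMGDH were not split by start. Since no source states that reads were assigned by strand, reads of the 3 genes may not be fully separate.

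The genes on either side gave a further view of the locus. ARSB, a lysosomal sulfatase beyond the end of DMGDH, was at 69.0, 67.6 and 68.7 CPM in Ctrl and 53.4, 52.4 and 54.3 CPM in siPAIP1, a log2 fold change of -0.36 with an SE of 0.06 (edgeR adjusted p = 0.0131). Its groups did not overlap, but the call was lost without Ctrl 1, Ctrl 3 or siPAIP1 2. JMY, an actin regulator beyond BHMT and named here for its position, had a log2 fold change of 0.42 (SE 0.20, adjusted p = 0.216) with overlapping groups. LHFPL2, farther out next to ARSB, had -0.22 (SE 0.08, edgeR adjusted p = 0.122). Of 6 neighbours tested, 1 was called lower and 0 higher, also without siPAIP1 3, with a median log2 fold change of -0.06.

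**Figure D2:**
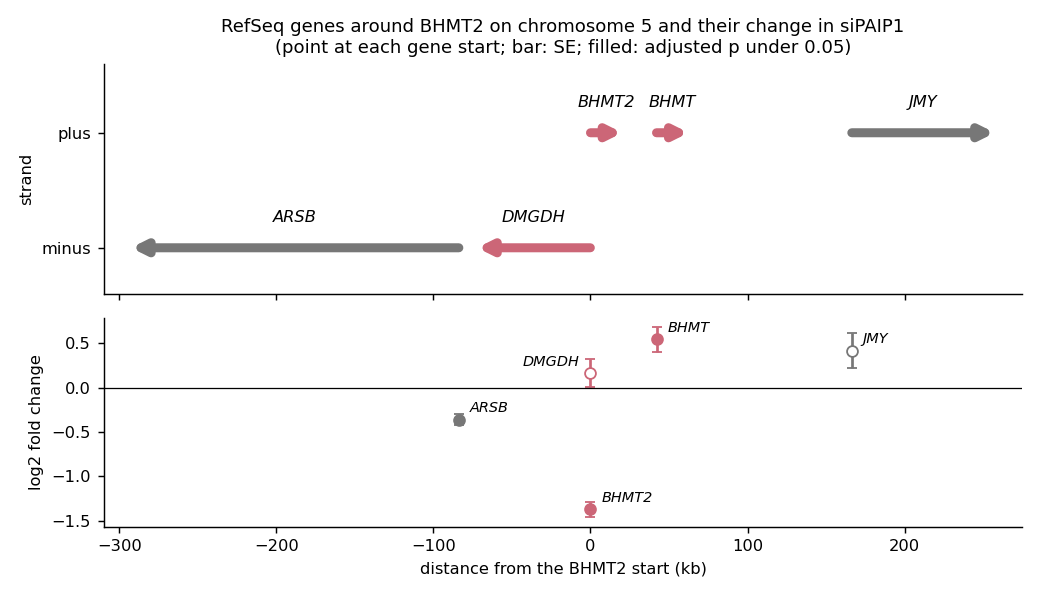
Positions and strands of RefSeq genes around BHMT2 on chromosome 5 (upper panel, distance from the BHMT2 start in kb) and the log2 fold change of each in siPAIP1 over Ctrl at its start (lower panel, bars are SE, filled points have an adjusted p below 0.05, enzyme genes in red). BHMT2 and DMGDH start at almost the same place with values of -1.37 and 0.17, and BHMT, 42 kb further, is at 0.54.

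MAT1A, the hepatocyte form of methionine adenosyltransferase, was measured at 148, 148 and 144 CPM in Ctrl and at 121, 107 and 123 CPM in siPAIP1. All siPAIP1 libraries were below all Ctrl libraries, and siPAIP1 2 was the lowest. The log2 fold change was -0.33 with an SE of 0.08 (adjusted p = 0.0358, edgeR's quasi-likelihood test). In FPKM, MAT1A was at 38.85, 38.51 and 38.49 in Ctrl and 33.45, 29.74 and 30.86 in siPAIP1. The limma test did not call it on log2(FPKM + 1) (adjusted p = 0.0571) or on log2(FPKM + 0.1) (adjusted p = 0.0579). Leaving out Ctrl 1, Ctrl 2, Ctrl 3, siPAIP1 1 or siPAIP1 2 also lost the call (edgeR adjusted p = 0.137, 0.1, 0.119, 0.0688 and 0.125), while leaving out siPAIP1 3 gave -0.37 and an adjusted p of 0.00137.

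MAT2A, the form found in most other cells, was measured at 194, 220 and 193 CPM in Ctrl and at 209, 220 and 204 CPM in siPAIP1. The groups overlapped, with a log2 fold change of 0.06 and an SE of 0.08 (edgeR adjusted p = 0.648). At 5881 to 7687 reads per library, the exact Poisson 95% interval of its count had a half-width of 2.24% to 2.56%. The FPKM ratio of MAT2A to MAT1A was 1.19, 1.35 and 1.22 in Ctrl and 1.57, 1.87 and 1.51 in siPAIP1. It was above 1 in every library and higher in each siPAIP1 library than in each Ctrl library, by 0.39 on the mean log2 scale.

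GNMT, the glycine methyltransferase, was measured at 2.43, 2.41 and 2.13 CPM in Ctrl and at 1.49, 1.37 and 0.962 CPM in siPAIP1. All siPAIP1 libraries were below all Ctrl libraries, with siPAIP1 3 the lowest. The log2 fold change was -0.86 with an SE of 0.21 (adjusted p = 0.0378, edgeR's quasi-likelihood test). These values rested on 65 to 81 reads per Ctrl library and 29 to 51 per siPAIP1 library, and the 29 reads had an exact Poisson 95% interval of 19.4 to 41.6. Without siPAIP1 3 the log2 fold change was -0.70 (adjusted p = 0.0187), and the call was lost on leaving out any other single library (edgeR adjusted p from 0.0525 without siPAIP1 1 to 0.140 without Ctrl 1). RefSeq annotates a read-through transcript from CNPY3 across GNMT, and the end of PEX6 overlaps it on the opposite strand. Whether reads were shared among these genes was not measured.

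AHCY, which removes S-adenosylhomocysteine, was measured at 540, 514 and 516 CPM in Ctrl and at 534, 527 and 453 CPM in siPAIP1. The groups overlapped, and siPAIP1 3 was the lowest library. AHCY had a log2 fold change of -0.05 with an SE of 0.09 (edgeR adjusted p = 0.720), and it was 0.02 without siPAIP1 3. AHCY has processed pseudogenes, which makes its unique counts uncertain. The FPKM ratio of AHCY to GNMT was 96.6, 92.2 and 105 in Ctrl and 156, 167 and 204 in siPAIP1, so the groups were apart, by 0.84 between the mean log2 ratios and by 0.47 with 1 added to each FPKM.

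CBS, the first enzyme of transsulfuration, was measured at 2.01, 3.11 and 2.49 CPM in Ctrl and at 3.32, 3.0 and 6.57 CPM in siPAIP1. siPAIP1 3 was far above all other libraries, and siPAIP1 2 was below Ctrl 2. The log2 fold change of 0.76 with an SE of 0.33 was not called (edgeR adjusted p = 0.176), and it was 0.31 without siPAIP1 3 (adjusted p = 0.251). The identifier used for CBS held 663 reads in total. A second identifier with the symbol CBS held 37 reads and was not tested, and near-identical copies on chromosome 21 make unique counts of this gene uncertain.

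CTH, the second transsulfuration enzyme, was measured at 3.47, 2.68 and 2.82 CPM in Ctrl and at 3.21, 3.35 and 2.65 CPM in siPAIP1. The groups overlapped, with Ctrl 1 the highest library and siPAIP1 3 the lowest. CTH had a log2 fold change of 0.04 with an SE of 0.17 (edgeR adjusted p = 0.905), on 80 to 117 reads per library. The FPKM ratio of CBS to CTH was 0.448, 0.901 and 0.683 in Ctrl and 0.801, 0.696 and 1.92 in siPAIP1, and the groups overlapped.

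**Figure D3:**
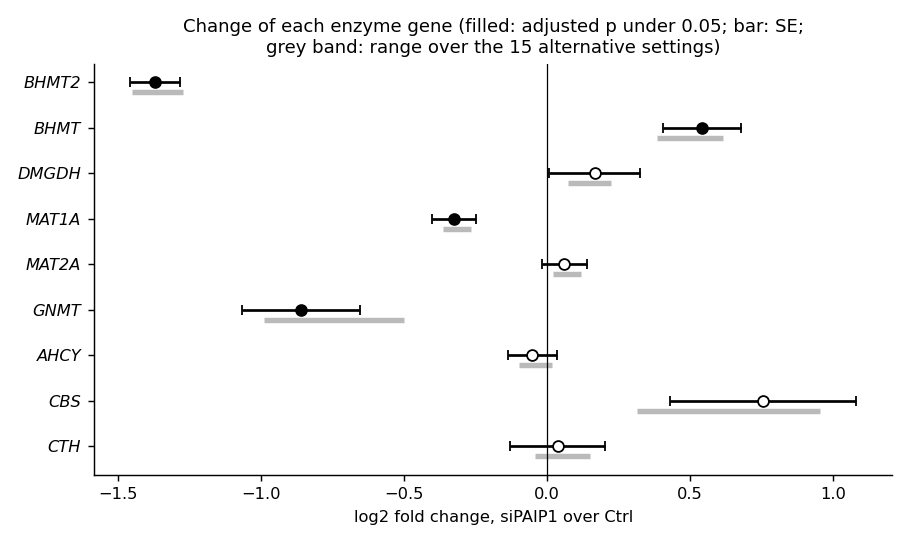
Log2 fold change of each enzyme gene in siPAIP1 over Ctrl (points, bars are SE, filled where the edgeR adjusted p is below 0.05), with grey bands for the range over the 15 alternative settings. The BHMT2 band runs from -1.45 to -1.27, and AHCY and CTH are the genes whose bands reach both sides of 0.

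**Figure D4:**
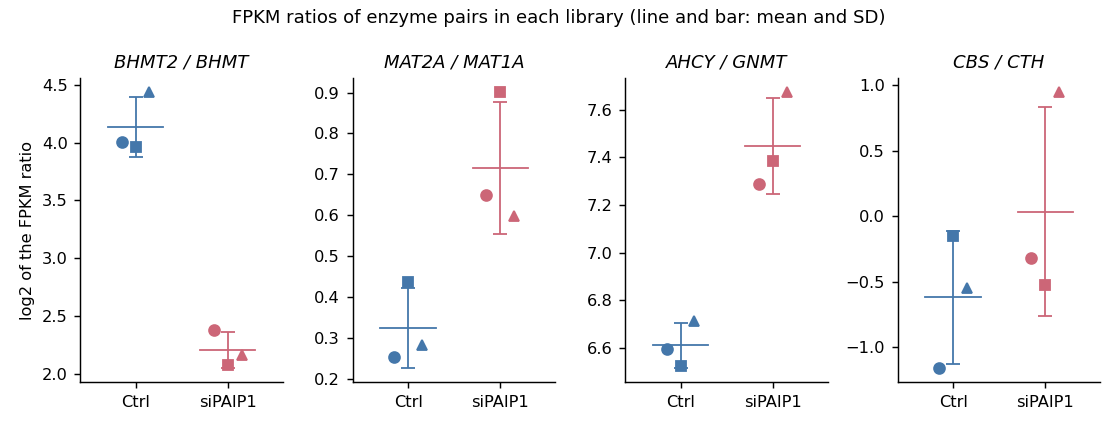
Log2 of the FPKM ratio of 4 enzyme pairs in each library, with Ctrl in blue, siPAIP1 in red, circles, squares and triangles for replicates 1, 2 and 3, and a line and bar for the mean and SD (axes do not start at 0). The groups are apart for BHMT2 to BHMT (means 4.13 and 2.20), MAT2A to MAT1A (0.32 and 0.72) and AHCY to GNMT (6.61 and 7.45), and overlap for CBS to CTH.

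The supply of betaine and choline was examined through 11 genes of uptake, oxidation and phosphatidylcholine synthesis. Of these, 4 were called lower and 0 higher, with a median log2 fold change of -0.21, and without siPAIP1 3 the count called lower was 7. SLC6A12, the betaine and GABA transporter, was at 4.34, 4.07 and 4.50 CPM in Ctrl and 1.75, 1.77 and 1.06 CPM in siPAIP1, a log2 fold change of -1.49 with an SE of 0.21 (edgeR adjusted p = 0.0067). Its groups were well apart, and it kept its call on leaving out each library. CHKA, which phosphorylates choline, was called at -0.47 (SE 0.09, edgeR adjusted p = 0.0210), PEMT, which makes phosphatidylcholine with S-adenosylmethionine, at -0.42 (SE 0.09, adjusted p = 0.0232), and the choline transporter SLC44A1 at -0.42 (SE 0.09, adjusted p = 0.0261).

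Remethylation by methionine synthase depends on the folate cycle, of which 24 genes were tested. Of these, 3 were called lower and 0 higher, with a median log2 fold change of -0.05, and the counts were 7 and 1 without siPAIP1 3. The called genes were GGH, which trims folate polyglutamates (-0.54, SE 0.13, edgeR adjusted p = 0.0406), SHMT1, the cytosolic serine hydroxymethyltransferase (-0.27, SE 0.07, adjusted p = 0.0464), and AMT, of the glycine cleavage system (-0.25, SE 0.06, adjusted p = 0.0482). In each of them the siPAIP1 libraries were all below the Ctrl libraries.

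Beyond GNMT and AHCY, 13 genes of S-adenosylmethionine use and adenosine removal were tested, of which 2 were called lower and 0 higher, with a median log2 fold change of -0.08, and the counts were 3 and 2 without siPAIP1 3. They were GAMT, which makes creatine (-0.30, SE 0.07, edgeR adjusted p = 0.0408), and HNMT, which methylates histamine (-0.41, SE 0.11, adjusted p = 0.0456). Downstream of CBS and CTH, 11 genes of cysteine, sulfide and glutathione metabolism were tested, and 1 was called lower and 0 higher, with a median of -0.06 (2 and 1 without siPAIP1 3). GCLC, the catalytic subunit of glutamate-cysteine ligase, was at 61.5, 60.0 and 63.6 CPM in Ctrl and 46.8, 48.0 and 43.9 CPM in siPAIP1, a log2 fold change of -0.42 with an SE of 0.07 (edgeR adjusted p = 0.0120). Its regulatory partner GCLM had a value of -0.37 (SE 0.13) and was not called (edgeR adjusted p = 0.102). Of 10 genes of methionine salvage and polyamine synthesis, 1 was called lower and 0 higher, with a median of -0.11 (2 and 0 without siPAIP1 3). ADI1, a dioxygenase of the salvage pathway, was called at -0.38 (SE 0.10, edgeR adjusted p = 0.0489), and APIP, which acts earlier in it, had -0.34 and was not called (SE 0.12, adjusted p = 0.111).

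Of the 12 called genes of all these lists, neighbours included, 11 lost their call when at least 1 library was left out, SLC6A12 being the exception. All 12 kept it without siPAIP1 3, and 2 kept it in the limma test on log2(FPKM + 1). Calls over all tested genes moved the same way. They were 963 lower and 882 higher in the main fit, and 1952 and 1857 without siPAIP1 3. Leaving out any other library gave 269 to 649 lower and 187 to 571 higher. The lists were drawn up with results of these libraries known. Their counts are read beside the 6.2% called lower and 5.68% called higher over all tested genes. Those without siPAIP1 3 are read beside the 1952 and 1857, for which the share of genes tested in that fit is not given here. Calls over all tested genes also rose in that fit, so its higher list counts are not read as results about the lists.

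**Figure D5:**
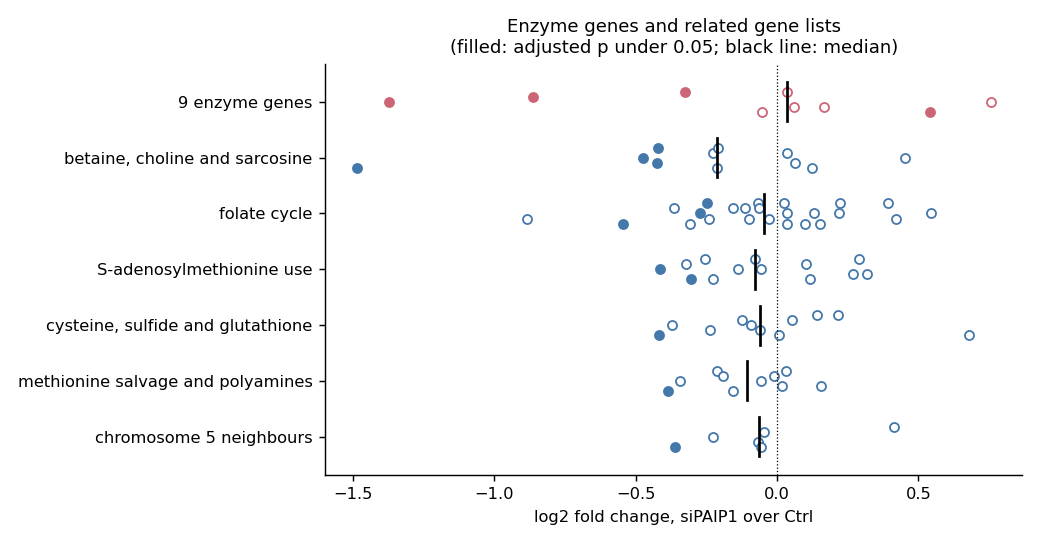
Log2 fold changes in siPAIP1 over Ctrl of the 9 enzyme genes (red) and of the tested genes of 6 related lists (blue), 1 point per gene, filled where the edgeR adjusted p is below 0.05, with a black line at each median. The enzyme genes spread from -1.37 for BHMT2 to 0.76 for CBS, and SLC6A12 at -1.49 is the lowest point of the betaine and choline list.

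The pattern of BHMT2 over the 6 libraries was compared with that of 9243 other genes with a mean of at least 10 CPM. The highest Pearson correlations of log2 CPM were those of AFMID, a kynurenine pathway enzyme (r = 0.999), PDZK1, a membrane scaffold protein (r = 0.999), and MFSD9, a transporter family member (r = 0.998). Since the 6 libraries form 2 groups that BHMT2 separates, genes lower in every siPAIP1 library tend to correlate with it, and 406 genes had an r above 0.95. Their sizes of change differed, with log2 fold changes of -0.53 for AFMID, -1.17 for PDZK1 and -0.45 for MFSD9 beside -1.37 for BHMT2.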

How the data were processed

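Poly(A) RNA of 6 HepG2 cultures (3 Ctrl, 3 siPAIP1) had been sequenced as paired-end directional libraries. The authors discarded reads with several unknown bases, trimmed adaptors with FASTX-Toolkit, aligned to GRCh38 with TopHat2 and deposited counts of uniquely mapped reads per gene; the deposited FPKM values were calculated by the authors from those reads. No source used here states the counting tool, its use of strand or its annotation release. Counts were filtered with filterByExpr, then scaled by TMM and fitted with edgeR 4.0.16 in R 4.3.3. The fit used glmQLFit and glmQLFTest, with group as the only term and Benjamini-Hochberg over 15528 genes. The SE is the absolute log2 fold change over the root of F. CPM values are TMM-scaled. FPKM served for levels between genes and for ratios. The p-values measure the spread between 3 libraries a group, called biological replicates by the study.

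The 9 members and all lists were chosen with earlier results of these data known. The text names the 9 members, PAIP1, up to 4 genes per list by lowest adjusted p (at least the first 2), and the 3 genes nearest to BHMT2 in pattern. Alternatives were RLE and upper-quartile scaling, no filter, a mean CPM of at least 1, the edgeR exact test, DESeq2 1.42.0, limma 3.58.1 on log2(FPKM + 1) and log2(FPKM + 0.1), the replicate number as a block, and leaving out each library. Sequences were read from RefSeq tables (GRCh38.p14), the GENCODE annotation and the study's siRNA list. Scripts were tested on simulated counts. Figures were drawn with matplotlib 3.10.9.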

Additional observations from a re-analysis of the deposited data

How the results depend on the processing

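Over 15 alternative settings, 108 of 135 log2 fold changes of the 9 enzymes kept their direction and side of the threshold, 22 lost their call and 5 changed sign. The sign changes were those of AHCY without siPAIP1 3 (range on leaving out a library -0.10 to 0.017) and of CTH without Ctrl 2, Ctrl 3, siPAIP1 1 or siPAIP1 2 (range -0.044 to 0.15). The enzymes called higher were 1, but 0 with upper-quartile scaling, DESeq2 or the replicate block, and 0 to 1 on leaving out a library. Those called lower were 3, but 1 with the replicate block, 2 with limma on log2(FPKM + 1) and on log2(FPKM + 0.1), and 1 to 3 on leaving out a library. Over all tested genes, 882 were called higher (187 to 1857 on leaving out a library) and 963 lower (269 to 1952), the highest counts being without siPAIP1 3. Limma called 588 lower on log2(FPKM + 1) and 607 on log2(FPKM + 0.1). With the replicate number as a block, 366 genes were higher and 459 lower, and BHMT, MAT1A and GNMT lost their calls (edgeR adjusted p = 0.0955, 0.0976 and 0.0669) while BHMT2 kept its call at -1.37. Deviations of same-numbered libraries from their group means correlated at 0.57, -0.57 and -0.20. Those of unlike number reached -0.58 (Ctrl 1 with siPAIP1 3) and 0.60 (Ctrl 2 with siPAIP1 3). Because siPAIP1 3 stood apart from its fellow replicates and weighs on all these deviations, they cannot settle whether same-numbered libraries were paired. The causes of these changes were not tested. Depth limits GNMT, CBS, CTH, DMGDH and BHMT, which had 29 to 232 reads per library.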
